A study of Mus musculus with 4 samples.

Results

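The cells described here are 205 barcodes, of 22916 kept in 4 single-cell libraries of mouse bone marrow, that carried immunoglobulin kappa and J chain transcripts at a high level. A barcode was kept as a cell when it had at least 1000 detected genes and at most 10% of its unique molecular identifiers (UMIs, each standing for 1 captured transcript) on mitochondrial genes. It was chosen when Igkc and Jchain together made up at least 0.5% of its UMIs and Vpreb1 and Igll1, which encode the surrogate light chain of B cell precursors, together gave at most 2 UMIs. Igkc encodes the constant part of the kappa light chain and lies on the plus strand at chr6:70726435-70726966. Jchain encodes the joining chain of IgM pentamers and IgA dimers and lies on the minus strand at chr5:88519809-88527891 (GRCm38). The study profiled donor-derived CD45.2+ cells sorted as negative for lineage markers and positive for Sca1 and Kit (LSK cells), collected 10 weeks after transplantation, with transcripts and 6 barcoded surface antibodies counted in the same cells. There was 1 library each from marrow labelled control, Mll3 deleted, Mll4 deleted and Mll3/4 deleted. MLL3 (gene Kmt2c) and MLL4 (gene Kmt2d) are histone H3K4 methyltransferases. The labels give neither the number of mice behind a library, nor the strain, the Cre driver or what the control cells carry. With 1 library per genotype no difference between genotypes could be tested, and intervals below cover counting error only.

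Plasma cells are the antibody-secreting end stage of the B lineage. During this differentiation the factors Blimp-1 (Prdm1), IRF4 and XBP1 replace the mature B cell programme, the endoplasmic reticulum expands, and immunoglobulin messages come to dominate the transcriptome. Bone marrow is a known site of long-lived plasma cells, which depend there on the receptor BCMA (Tnfrsf17) and its ligand. An LSK sort is meant to collect stem cells and early progenitors, and plasma cells are not among them, although Ly6a, which encodes Sca1, is also expressed by many lymphoid cells.

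The 4 libraries held 7274 (control), 6101 (Mll3), 4793 (Mll4) and 4748 (Mll3/4) kept cells, of 5136 to 7702 deposited barcodes each. Libraries are called by their labels, because Kmt2d was close to the control level in the cells of the Mll4-labelled library outside the chosen set (22.8 against 24.7 CPM, UMIs scaled to a fixed library total), and 3' counts cannot show a deletion upstream of the captured end. Median depth was 14406.5, 15338, 21203 and 8915 UMIs in the cells that were not chosen. In chosen cells it was 21114, 26564, 24301.5 and 25700 UMIs, yet with fewer detected genes than in other cells in the first 3 libraries (medians of 2448, 2527.5 and 2861.5 against 3853, 4102 and 4493). Each pair of libraries shared 9 to 22 barcodes. Only 1 chosen barcode, of the Mll4-labelled library, also occurred in another library, where it had 1025 UMIs and none from Igkc or Jchain. Igkc was also found at low level outside the chosen cells: at least 1 UMI was seen in 28.4% of the other control cells, 38.3% of the Mll3-labelled, 97.6% of the Mll4-labelled and 7.31% of the Mll3/4-labelled ones. With cells thinned to 3000 UMIs, which left out 14, 17, 132 and 33 shallower cells, these shares were 7.32%, 10.2%, 54.4% and 3.59%. The corresponding levels were 22.6, 77.7, 209 and 20.9 CPM, against 308432, 490184, 251826 and 334115 CPM in the chosen cells.

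Chosen cells made up 34 of 7274 control cells (0.467%, exact 95% binomial interval 0.324 to 0.653%) and 30 of 6101 Mll3-labelled cells (0.492%, 0.332 to 0.701%). They made up 138 of 4793 Mll4-labelled cells (2.88%, 2.42 to 3.39%) and 3 of 4748 Mll3/4-labelled cells (0.0632%, 0.0130 to 0.185%). The control and Mll3-labelled intervals overlap, while the Mll4-labelled interval lies above both and the Mll3/4-labelled interval below both. These are counting intervals on single libraries, so they do not measure the variation between mice. The shares moved with the cell filter. With a looser filter (500 genes, 20% mitochondrial) the Mll4-labelled share was 9.11%. With a stricter one (2000 genes, 5% mitochondrial) the control, Mll3- and Mll4-labelled shares were 0.710%, 0.811% and 3.54%.

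**Figure D1:**
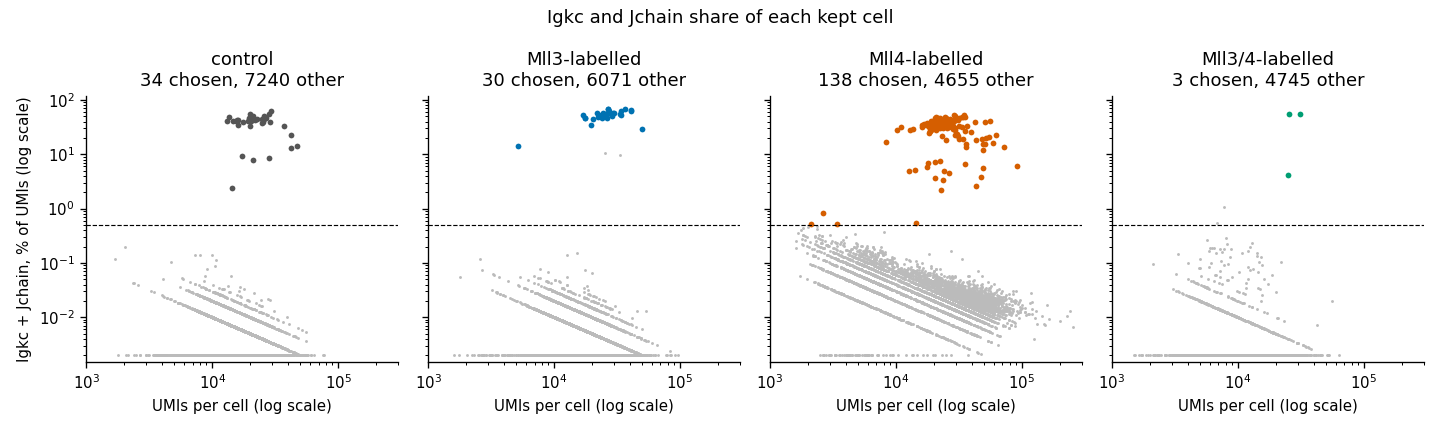
Share of UMIs from Igkc and Jchain (y axis, percent, log scale) against UMIs per cell (x axis, log scale) for every kept cell of the 4 libraries, with chosen cells in colour, other cells in grey and the 0.5% limit dashed. Cells with no such UMI lie along the bottom edge, and the grey points above the line are the 4 cells left out for Vpreb1 and Igll1. Most chosen cells form a group above 10%, and only in the Mll4-labelled library do chosen points reach down to the limit.

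Most chosen cells lay far above the limit. The median share of Igkc and Jchain was 41.8% in control (range 2.41 to 62.2%), 54.4% in Mll3-labelled (14.5 to 69.3%), 32.9% in Mll4-labelled (0.516 to 52.9%) and 54.8% in Mll3/4-labelled cells (4.22 to 56.2%). All immunoglobulin genes and Jchain together took a median 53.5%, 64.9%, 47.8% and 63.8% of a chosen cell's UMIs. Just outside the limit, the highest cell that passed the Vpreb1 and Igll1 condition reached 0.196% in control, 0.151% in Mll3-labelled and 0.0620% in Mll3/4-labelled cells, so a wide gap surrounds the limit there. In the Mll4-labelled library the highest such cell reached 0.469%, 29 cells lay between 0.25% and 0.5%, and 4 chosen cells lay between 0.5% and 1%. Those 4 had 9 to 52 heavy chain UMIs each and no callable variable segment. The Vpreb1 and Igll1 condition left out 4 cells. The 2 in the Mll3-labelled library had 10.6% and 9.88% of their UMIs from Igkc and Jchain together with 16 and 17 UMIs of Dntt, the terminal transferase of precursor cells, and the 2 in the Mll3/4-labelled library had 0.553% and 1.08%.

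The label of these cells as mature B or plasma cells was set beside genes the rule did not read by name. The gene lists were chosen with earlier results of these data known, so this is a description and not an independent check. A list of 16 plasma cell genes was detected at a median of 14, 15, 15 and 14 genes per chosen cell in the control, Mll3-, Mll4- and Mll3/4-labelled libraries, against 2, 3, 3 and 5 in the other cells. At least 8 of the 16 were present in 33 of 34, 30 of 30, 133 of 138 and 3 of 3 chosen cells. The mature B genes were mixed. Ms4a1 (CD20) was found in 18 of 34, 15 of 30 and 74 of 138 chosen control, Mll3- and Mll4-labelled cells. Of the 7, 7 and 9 mature B genes with at least 20 CPM in chosen or other cells, 6, 5 and 7 were higher by a log2 ratio above 1. Over all genes passing that limit, 4.55%, 3.74% and 4.89% were higher by as much. A gene could pass it through the chosen cells alone, as Ms4a1 did. This count therefore describes the set and does not check the label. Transcripts of several other mature B surface proteins were nearly absent. Cd22, an inhibitory lectin of B cells, gave no UMI in any chosen control, Mll3- or Mll4-labelled cell. In the same order Fcer2a (CD23) gave 1, 2 and 7, and Cr2 (CD21) gave 1, 0 and 10. Cxcr5, the follicle homing receptor, gave none in any of these libraries, and Ccr7 gave 0, 0 and 2. Nearly all of the cells thus carried the plasma cell list, and part of the mature B list was present and part nearly absent. They are called chosen cells below.

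Most chosen cells had 1 leading heavy chain class and 1 leading light chain type. In 200 of the 205 cells at least 95% of the heavy chain constant UMIs came from 1 class, and in 195 cells at least 95% of the light chain UMIs came from 1 type. IgM (Ighm, minus strand, chr12:113418558-113422730) was the leading class in 30 of 34 control cells (88.2%, 72.5 to 96.7%), 24 of 30 Mll3-labelled cells (80.0%, 61.4 to 92.3%) and 101 of 138 Mll4-labelled cells (73.2%, 65.0 to 80.4%). IgA (Igha, minus strand, chr12:113254830-113260236), the class of mucosal secretions, led in 4 control cells (11.8%, 3.30 to 27.5%), 4 Mll3-labelled cells (13.3%, 3.76 to 30.7%) and 28 Mll4-labelled cells (20.3%, 13.9 to 28.0%). These intervals overlap between all 3 libraries. IgG led in 0, 2 and 9 cells, which were 1 Ighg2b and 1 Ighg3 cell in the Mll3-labelled library and 5 Ighg2b, 3 Ighg2c and 1 Ighg1 cell in the Mll4-labelled one. No chosen cell was led by IgD or IgE. The 0 of 34 IgG cells in control has an interval reaching 10.3%, which covers the 6.67% and 6.52% of the other libraries.

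**Figure D2:**
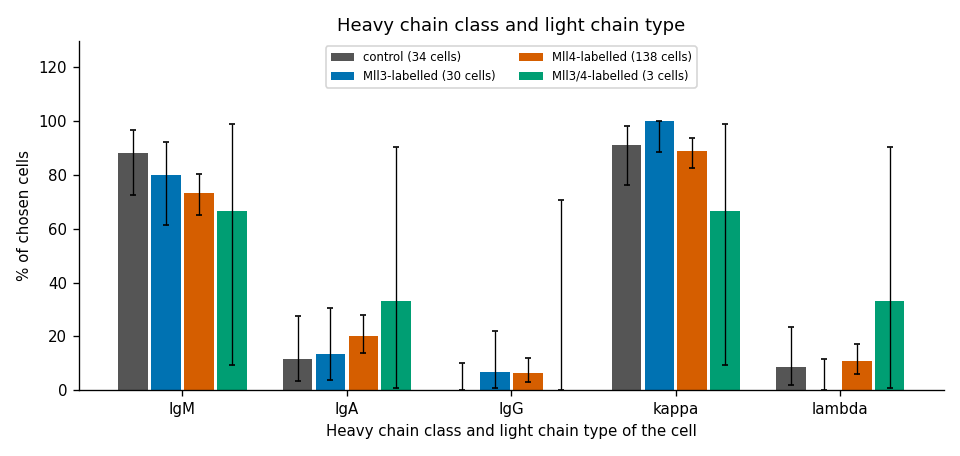
Percent of chosen cells (y axis) whose leading heavy chain class is IgM, IgA or IgG and whose leading light chain type is kappa or lambda (x axis), by library, with exact 95% binomial intervals as error bars. IgM and kappa lead in each library, the intervals of the first 3 libraries overlap in each class, and the 3 Mll3/4-labelled cells give intervals that span most of the scale.

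Although the rule was written on the kappa chain, 19 of the 205 cells had more lambda than kappa constant UMIs. These lambda cells were 3 in control, 0 in Mll3-labelled, 15 in Mll4-labelled and 1 in Mll3/4-labelled cells, leaving 186 kappa cells. The call took the larger count alone. In the Mll4-labelled library 1 lambda cell had 4172 Igkc against 5018 lambda UMIs, and lambda cells went down to 59 lambda UMIs. Most of the lambda cells met the rule mainly through J chain transcripts. The median lambda cell had 18 Igkc UMIs, 5574 lambda constant UMIs and 1153 Jchain UMIs, and its Igkc and Jchain share was 5.87% (0.526 to 21.5%). Kappa cells had a similar Jchain level, with a median of 1038.5 UMIs. Most of the low-share cells were of this kind: among the chosen cells under 10%, 3 of 4 in control, 13 of 20 in Mll4-labelled and 1 of 1 in Mll3/4-labelled were lambda cells. By heavy class, 2 lambda cells in control were IgM and 1 IgA, and 14 in the Mll4-labelled library were IgM and 1 IgA.

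Variable segments were used broadly. A light chain V segment could be called (at least 3 UMIs) in 200 cells and a heavy chain V segment in 196, and the leading segment took a median 99.4% and 100% of the V UMIs of its kind in a cell. Over the 4 libraries 56 light chain and 55 heavy chain V segments were used. The most frequent light chain segment was Igkv1-110 (plus strand, chr6:68270485-68271267), in 17 cells, of which 14 were Mll4-labelled, 2 control and 1 Mll3/4-labelled. Iglv1 followed with 12 cells. Combining light V, heavy V and heavy constant gene, the 196 cells with both V calls fell into 150 combinations, of which 25 occurred in 2 or more cells and covered 71 cells (36.2%). Within libraries, 10 cells in control (31.2%), 10 in Mll3-labelled (34.5%) and 45 in Mll4-labelled (34.1%) shared their combination with another cell of that library. This share depends on the number of cells with both V calls, which differed between libraries, and its difference was not tested.

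The largest combination paired Igkv1-110 with Ighv1-81 (minus strand, chr12:115920279-115920712) and Igha, in 5 Mll4-labelled cells and 1 Mll3/4-labelled cell. In the Mll4-labelled library, Igkv3-5 with Ighv1-42 and Iglv1 with Ighv1-76 each occurred in 5 IgM cells, and Igkv17-127 with Ighv5-9-1 in 4 IgA cells. Igkv17-127 with Ighv5-9-1 also occurred with Ighm in 2 cells of that library, so the same V pair was seen with both classes. In the Mll3-labelled library Igkv8-18 with Ighv5-16 occurred in 4 IgM cells. Of the repeated combinations, 4 were found in more than 1 library and 1 in 3 libraries: Igkv14-126 (plus strand, chr6:67896172-67896642) with Ighv11-2 (minus strand, chr12:114048241-114048812) and Ighm, in 1 control, 2 Mll4-labelled and 1 Mll3/4-labelled cell. Ighv11 segments are known from B-1 cell antibodies against phosphatidylcholine. The files hold gene counts without junction sequences, so cells with the same segments need not descend from 1 clone.

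Gene levels were then compared between the summed chosen cells and the summed other cells of the same library, in the 3 libraries with at least 20 chosen cells. The rule chose the cells on their own transcriptomes, so these differences describe the set and were not tested. Because immunoglobulin genes and Jchain took 49.7% (control), 65.0% (Mll3-labelled) and 43.5% (Mll4-labelled) of all chosen UMIs, every other gene is pushed down in CPM. The median gene was lower in chosen cells by a log2 ratio of -1.35, -1.95 and -1.14, or -0.50, -0.65 and -0.42 when the 392 immunoglobulin genes were left out of the totals. Jchain is not among the 392 and stayed in these totals. It was at 50676, 52603 and 37748 CPM of all chosen UMIs, so ratios without immunoglobulin genes remain pushed down by it. Among genes with at least 20 CPM in chosen or other cells, 4.55% of 6237 in control, 3.74% of 6388 in Mll3-labelled and 4.89% of 6278 in Mll4-labelled cells were higher in chosen cells by a log2 ratio above 1, and 67.1%, 82.1% and 58.7% were lower by as much. Without the immunoglobulin genes the shares were 7.88%, 8.31% and 6.84% higher and 27.2%, 36.3% and 19.9% lower. Unless stated otherwise, log2 ratios below use all genes.

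All 16 plasma cell genes passed the 20 CPM limit in each library, and 16, 16 and 15 of them were higher past a log2 ratio of 1, with medians of 7.24, 6.10 and 6.11 (8.10, 7.41 and 6.84 without immunoglobulin genes). The exception was Fkbp11, a prolyl isomerase of the secretory pathway, at 0.80 in the Mll4-labelled library. Over all genes with at least 20 CPM, 4.55%, 3.74% and 4.89% were higher past a log2 ratio of 1. Several list genes, such as Irf4 and Tnfrsf17, passed the limit through the chosen cells alone. For these the direction was fixed in advance, so the count describes the set. Among the transcription factors, Xbp1, which drives expansion of the endoplasmic reticulum, was at 795 CPM in chosen against 36.6 in other control cells (log2 ratio 4.44), 801 against 40.2 in Mll3-labelled (4.32) and 1178 against 92.1 in Mll4-labelled cells (3.68). It was detected in 34 of 34, 30 of 30 and 135 of 138 chosen cells, with medians of 15, 18 and 28 UMIs. Irf4 was at 96.8 against 0.202, 159 against 0.457 and 166 against 1.47 CPM. Prdm1, encoding Blimp-1, was lower in level, at 39.0 against 0.624, 43.2 against 0.247 and 111 against 3.62 CPM. Prdm1 was found in 18 of 34, 16 of 30 and 116 of 138 chosen cells. Pou2af1, encoding the octamer co-activator OBF-1, was at 152, 156 and 284 CPM in chosen cells against 0.506, 5.38 and 0.821 in others.

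The surface genes of plasma cells were as clearly present. Tnfrsf17 was at 176 CPM against 0.110 in control, 141 against 0.200 in Mll3-labelled and 86.2 against 0.111 in Mll4-labelled cells. It was found in 29 of 34, 26 of 30 and 101 of 138 chosen cells. Sdc1, encoding the plasma cell marker CD138, was at 113 against 3.89, 132 against 4.32 and 127 against 1.80 CPM. Slamf7 was at 216, 211 and 150 CPM in chosen cells, and Cd28, a co-stimulatory receptor also found on plasma cells, at 69.1, 68.0 and 45.7. Mzb1, a chaperone partner for IgM and J chain, had the highest CPM of the 16 plasma cell genes, at 2054 against 2.43, 2022 against 27.4 and 1398 against 1.89 CPM. The disulphide isomerase Txndc5 was at 832, 775 and 798 CPM, and the signal peptidase subunit Sec11c at 1251, 1266 and 843. Derl3, which acts in the removal of misfolded proteins, was at 132, 166 and 187 CPM. Tent5c, a poly(A) polymerase that stabilises immunoglobulin messages, was at 172, 256 and 286. In the Mll3/4-labelled library the other cells carried 1644 CPM of Mzb1, beside 844 CPM of Ighm, so a contrast with them is smaller for such genes.

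**Figure D3:**
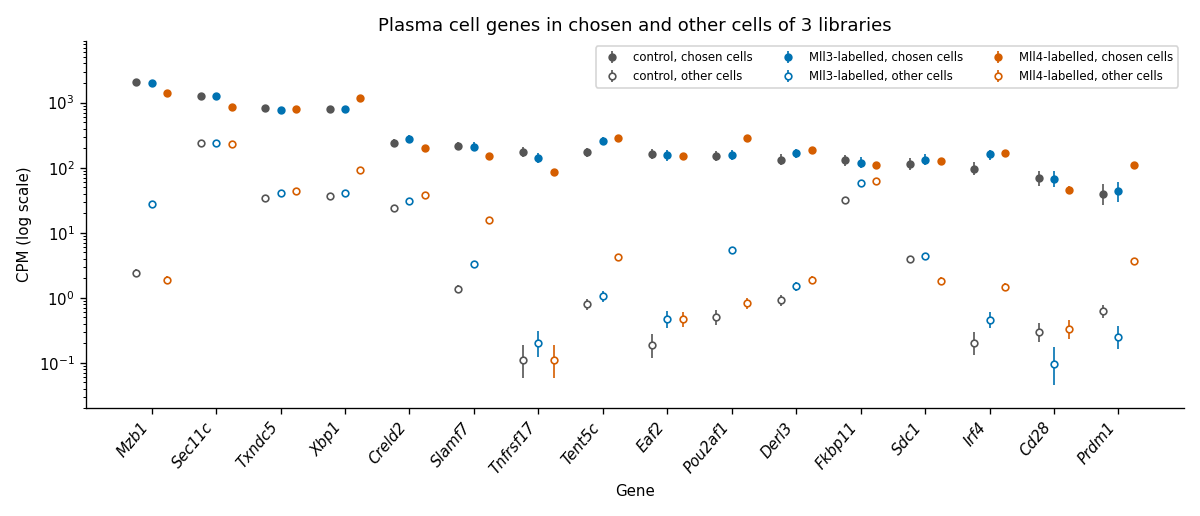
Level of the 16 plasma cell genes (CPM, log scale) in the summed chosen cells (filled points) and the summed other cells (open points) of the control, Mll3- and Mll4-labelled libraries, with exact 95% Poisson intervals. The filled points lie above the open points of the same library for each gene, and the gap is smallest for Fkbp11.

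The wider list of 16 secretory pathway and unfolded protein response genes, which serves every cell that exports protein, was higher by less. All 16 passed the 20 CPM limit in each library. The median log2 ratio was 1.56 in control, 1.28 in Mll3-labelled and 0.77 in Mll4-labelled cells, with 10, 10 and 5 of 16 above 1 and 0, 1 and 2 below -1. Without immunoglobulin genes the medians were 2.41, 2.59 and 1.50, with 14, 14 and 11 above 1 and none below -1. Over all genes with at least 20 CPM, 4.55%, 3.74% and 4.89% were above 1 and 67.1%, 82.1% and 58.7% below -1. Without immunoglobulin genes these shares were 7.88%, 8.31% and 6.84% above and 27.2%, 36.3% and 19.9% below. Hspa5, encoding the chaperone BiP that holds free heavy chains, was at 724 against 254, 646 against 288 and 759 against 443 CPM. Hsp90b1, encoding its partner GRP94, was at 1768 against 368, 1863 against 445 and 1761 against 536 CPM. Herpud1 (log2 ratios 2.57, 2.90 and 3.27), Pdia4 (3.16, 3.14 and 2.29) and Edem1 (3.85, 3.93 and 2.46), of degradation and disulphide formation, had the larger ratios. The lectin chaperones stood lower. Calr, encoding calreticulin, was at -0.31, -0.43 and -1.54, and at 0.55, 0.88 and -0.81 without immunoglobulin genes, so its sign in control and Mll3-labelled cells depends on the total used. Canx, encoding calnexin, was at -0.54, -1.45 and -1.01, and at 0.31, -0.14 and -0.28 without immunoglobulin genes, where its sign flips in control.

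Since chaperone genes are known to share the endoplasmic reticulum stress element, their RefSeq promoters (250 bases before to 50 after the start, GRCm38.p6) were searched for it on both strands as CCAAT followed, after 9 bases of any kind, by CCACG. It occurred in 37 of 27025 genes (0.137%), in 5 of the 14 secretory genes with a promoter in the table (35.7%; Hspa5, Hsp90b1, Calr, Canx and Pdia6) and in 2 of 13 plasma cell genes (15.4%; Derl3 and Creld2). The 4 promoters shown belong to the genes of that group with log2 ratios of 0.78 or more in each library. They lie at chr2:34771840-34772139 on the plus strand (Hspa5), chr10:86705395-86705694 on the minus strand (Hsp90b1), chr10:75893148-75893447 on the plus strand (Derl3) and chr15:88819396-88819695 on the plus strand (Creld2). Capitals mark the fixed letters of the element, CCAAT and CCACG, or their reverse complements.
Hspa5: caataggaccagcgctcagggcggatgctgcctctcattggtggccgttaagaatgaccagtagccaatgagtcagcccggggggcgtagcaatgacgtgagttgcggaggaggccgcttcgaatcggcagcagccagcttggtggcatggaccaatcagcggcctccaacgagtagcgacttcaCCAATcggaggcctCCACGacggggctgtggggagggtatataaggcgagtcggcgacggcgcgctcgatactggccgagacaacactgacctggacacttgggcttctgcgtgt
Hsp90b1: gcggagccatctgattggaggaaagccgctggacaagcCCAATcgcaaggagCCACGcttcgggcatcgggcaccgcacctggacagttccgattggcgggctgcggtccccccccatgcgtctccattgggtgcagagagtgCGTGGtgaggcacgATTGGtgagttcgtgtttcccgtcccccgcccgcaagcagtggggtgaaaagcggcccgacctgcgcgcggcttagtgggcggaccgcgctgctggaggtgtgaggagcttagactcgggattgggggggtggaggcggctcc
Derl3: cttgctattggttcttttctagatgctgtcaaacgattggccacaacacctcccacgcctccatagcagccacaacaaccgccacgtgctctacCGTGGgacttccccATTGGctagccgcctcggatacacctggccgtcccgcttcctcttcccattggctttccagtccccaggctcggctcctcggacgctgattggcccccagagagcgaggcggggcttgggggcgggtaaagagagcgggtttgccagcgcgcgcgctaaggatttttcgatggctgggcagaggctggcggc
Creld2: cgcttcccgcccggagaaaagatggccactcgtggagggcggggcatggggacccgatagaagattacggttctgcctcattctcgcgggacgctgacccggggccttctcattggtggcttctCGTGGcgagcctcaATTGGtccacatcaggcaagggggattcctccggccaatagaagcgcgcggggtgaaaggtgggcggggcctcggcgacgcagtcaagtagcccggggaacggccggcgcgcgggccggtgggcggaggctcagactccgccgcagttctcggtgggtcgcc
The match lies 65 to 47 bases before the start in Hspa5, 156 to 138 in Derl3 and 126 to 108 in Creld2, and Hsp90b1 holds 2, at 212 to 194 and 107 to 89. In Derl3 and Creld2 it reads on the opposite strand. Genes with the element were not uniformly high: Calr, Canx and Pdia6 hold it too, with the low ratios given for Calr and Canx and with 0.82, 0.77 and 0.12 for Pdia6. The octamer ATGCAAAT, known from immunoglobulin promoters, was found in none of the promoters of these 2 lists and in 1.97% of all promoters. Promoters of the immunoglobulin genes were not analysed here.

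Beyond the lists, the 10 genes with the largest ratios were taken in each library among those with at least 50 CPM in either sum. Tnfrsf17, Eaf2 and Fcrla were among them in each of the 3 libraries. Eaf2, an elongation factor partner, was at 162, 154 and 151 CPM, and Fcrla, a B lineage Fc receptor-like protein held inside the cell, at 98.1, 115 and 98.0. Prg2, encoding the major basic protein of eosinophil granules, was at 1001 CPM in chosen against 0.472 in other control cells (log2 ratio 11.04), 477 against 3.16 in Mll3-labelled (7.24) and 599 against 3.48 in Mll4-labelled cells (7.43). It was detected in 33 of 34, 30 of 30 and 130 of 138 chosen cells. The sulphotransferase gene Chst1 was at 108, 214 and 127 CPM. The calcium channel gene Cacna1s was at 65.4 CPM in control chosen cells, and its relative Cacna1e at 52.6 in Mll4-labelled ones. Oosp1 (82.8 CPM), Wnt10a (159) and St8sia6 (53.1) were further named genes of the Mll3-labelled library, and Pls1 (56.9) and Prlr, the prolactin receptor (62.5), of the Mll4-labelled one. Ly6d, a lymphoid surface gene, was at 1057, 1425 and 1177 CPM against 6.41, 36.9 and 4.75.

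Lowest in the chosen control cells were granule and platelet genes: Camp (log2 ratio -6.33), Elane (-6.05), Ngp (-5.51), Pf4 (-5.27) and Ctsg (-5.16). Each had a UMI in 1 of 34 chosen control cells (2.94%). Few of the other control cells held Camp (3.33%), Ngp (2.13%) or Elane (5.01%), so these ratios do not describe the typical other cell. Pf4 was found in 19.4% and Ctsg in 18.2% of the other control cells. Ms4a3 (-5.56), Elane (-5.54), Gria3 (-5.31), Prtn3 (-5.18) and Mpo (-5.11) had the most negative ratios among Mll4-labelled cells. In the Mll3-labelled library the 5 lowest had no UMI in chosen cells, and with a floor of 3 UMIs over the group Cd63 was at least 101-fold lower, Mcm5 at least 30.6-fold, Tspan4 at least 29.8-fold, Bex1 at least 28.8-fold and Mcm4 at least 28.7-fold. Elane was nevertheless detected in 91 of 138 chosen Mll4-labelled cells, at 44.1 CPM against 2059 in the other cells of that library and 1678 in its barcodes with under 1000 genes.

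B cell genes were unevenly represented. Of the 16 mature B genes, 7, 7 and 9 passed the 20 CPM limit, with 6, 5 and 7 above a log2 ratio of 1. Over all genes passing it the shares were 4.55%, 3.74% and 4.89%. Ms4a1, encoding CD20, was at 54.1 CPM in chosen control cells, where no other cell of the library held a UMI (at least 2136-fold higher, with a floor of 3 UMIs over the group). It was at 29.7 against 0.0285 and 48.6 against 0.0770 CPM in the Mll3- and Mll4-labelled cells. Fcmr, the IgM Fc receptor gene, was at 28.9, 35.8 and 23.2 CPM. Cd37, a tetraspanin shared by many leukocytes, did not differ past a log2 ratio of 1 (-0.43, -0.41 and -0.31). Of the receptor genes, Cd79a, the signalling chain of the B cell receptor, was at 421 against 4.46, 519 against 70.9 and 296 against 3.04 CPM. Cd79b was at 245, 200 and 133 CPM and the adaptor Blnk at 49.0, 72.9 and 75.8.

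The B lineage transcription factors did not move as a group, with list medians of 0.08, -1.29 and 0.41. Pax5, which holds B cell identity and is shut off in plasma cells, gave 0, 0 and 6 UMIs in the chosen cells. Ebf1, its partner in early B cells, gave 3, 2 and 97 UMIs, in 2, 2 and 40 cells. Spib gave 0, 0 and 6 UMIs and Bach2 1, 3 and 32. Of the 7, 6 and 8 measured members, 3, 1 and 4 were higher past a log2 ratio of 1, and 1, 4 and 2 lower. Over all genes with at least 20 CPM, 4.55%, 3.74% and 4.89% were higher by as much, and 67.1%, 82.1% and 58.7% lower. The higher members included Pou2af1, given above, and in control Foxo1, at 22.6 CPM against 7.42. Both passed the limit through the chosen cells alone. The median of the B progenitor list was -2.61, -2.99 and -2.30, over 4, 6 and 6 measured genes of 12. Class II presentation split likewise. Cd74, the invariant chain, was at 2948 against 146 CPM in control, 5557 against 282 in Mll3-labelled and 2394 against 1200 in Mll4-labelled cells. H2-Aa, a class II chain itself, was at 31.4 against 81.1, 12.4 against 153 and 504 against 702 CPM. In the Mll4-labelled chosen cells 42.8% of the H2-Aa UMIs lay in 3 of 138 cells. Ciita, the class II transactivator, gave 0, 0 and 34 UMIs. The list medians were -0.75, -1.95 and -0.48, and 0.10, -0.64 and 0.25 without immunoglobulin genes, where the sign flips in control and Mll4-labelled cells.

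Stem and progenitor genes were low in the chosen cells although the sort selected for Sca1 and Kit. Of the 16 genes of that list, 16, 16 and 13 passed the 20 CPM limit, and 15, 15 and 12 of these were lower past a log2 ratio of -1, with medians of -2.64, -5.01 and -2.16 (-4.22 in the Mll3-labelled library with its 3 genes without UMIs set at their bound). The exception in each library was Ly6a, encoding Sca1. It was at 568 against 90.3 CPM in control, 764 against 128 in Mll3-labelled and 740 against 98.8 in Mll4-labelled cells, and was found in 32 of 34, 29 of 30 and 133 of 138 chosen cells. Kit itself was at 45.3 against 216, 22.2 against 217 and 108 against 370 CPM, with a UMI in 14 of 34, 11 of 30 and 77 of 138 chosen cells. Cd34 was at 50.3 against 334, 16.1 against 263 and 27.0 against 204 CPM. All 13 Cd34 UMIs of the Mll3-labelled chosen cells came from 1 cell. Over all genes with at least 20 CPM, 67.1%, 82.1% and 58.7% were lower past a log2 ratio of -1. Without immunoglobulin genes 14, 14 and 12 of the measured stem list genes were, against 27.2%, 36.3% and 19.9% of all genes.

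**Figure D4:**
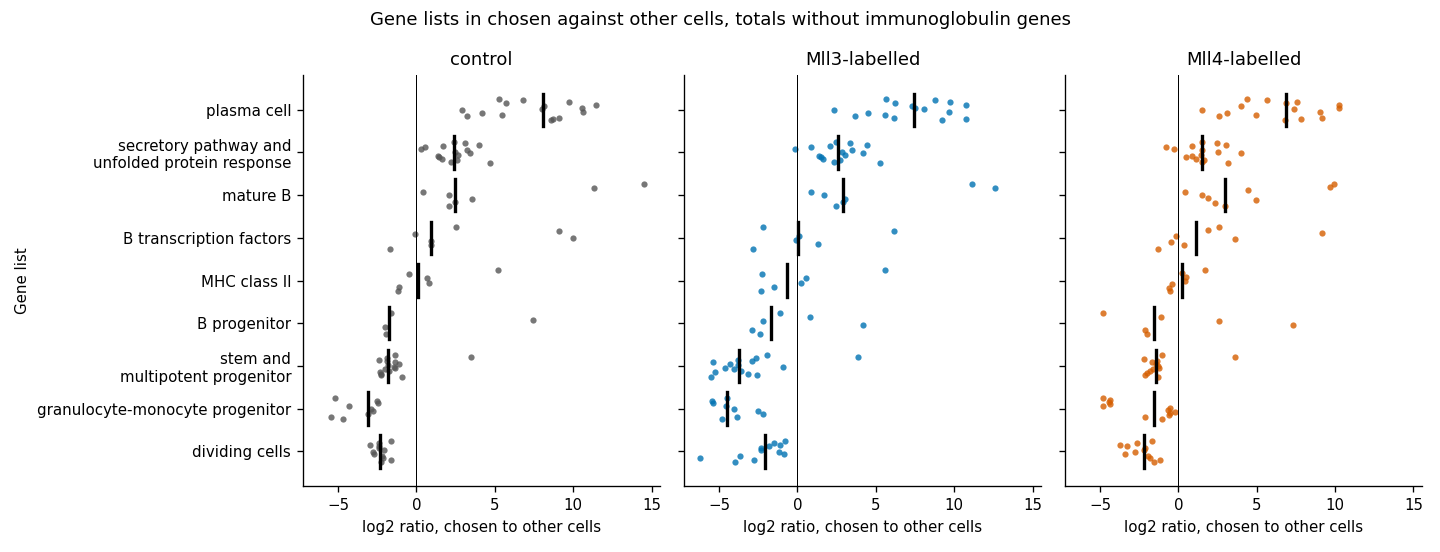
Log2 ratio of summed chosen to summed other cells (x axis, totals without immunoglobulin genes) for each measured gene of 9 lists (points), with the list median as a bar, in the control, Mll3- and Mll4-labelled libraries. Plasma cell genes lie to the right with medians of 8.10, 7.41 and 6.84, and stem, granulocyte-monocyte and dividing cell genes to the left, apart from Ly6a in the stem list.

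A few chosen cells held many stem list genes. In control 4, in Mll3-labelled 1 and in Mll4-labelled 11 chosen cells held at least 8 of the 16 stem list genes, and 3, 1 and 11 of these also held at least 8 plasma cell genes. They were deep, with medians of 42176.5, 49658 and 51659 UMIs and 6011, 6490 and 6494 genes, against 20603.5, 26390 and 23693 UMIs and 2422, 2513 and 2821 genes in the remaining chosen cells. A doublet score marked 4, 0 and 10 chosen cells, of which 3, 0 and 6 were among these. With these cells left out, an alternative chosen after seeing the data, the plasma cell median was 7.44, 6.14 and 6.20. The stem list median was then -5.37, -6.78 and -4.56, a change that the choice of these cells by the same list sets. Ly6a was still found in 28 of 30, 28 of 29 and 122 of 127 of the remaining cells, and Kit in 10 of 30, 10 of 29 and 66 of 127.

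The same cells carried most of the cell division transcripts. All 12 dividing cell genes were lower past a log2 ratio of -1 in each library, with medians of -3.17, -3.37 and -2.92. The share over all genes with at least 20 CPM was 67.1%, 82.1% and 58.7%. Without immunoglobulin genes 12, 10 and 12 dividing cell genes were lower by as much, against 27.2%, 36.3% and 19.9% of all genes. At least 6 of the 12 were detected in 3 of 34 (8.82%), 1 of 30 (3.33%) and 11 of 138 (7.97%) chosen cells, against 45.0%, 48.4% and 43.2% of the other cells. Of these 15 chosen cells, 12 were among those with at least 8 stem list genes, 13 held at least 8 plasma cell genes and 8 were marked as doublets. The cells with at least 8 stem list genes held 85.7%, 86.2% and 53.6% of the dividing list UMIs of the chosen cells. Without them the dividing list medians were -5.93, -6.44 and -4.06. In control, 70.7% of the Mki67 UMIs of all chosen cells and 77.5% of the Top2a UMIs came from 1 cell.

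Markers of most other blood lineages had lower summed levels in the chosen than in the other cells, except the monocyte and plasmacytoid dendritic lists. The granulocyte-monocyte progenitor list had medians of -3.92, -5.80 (-5.13 with the 2 genes without UMIs at their bound) and -2.31, with 9 of 9, 9 of 9 and 11 of 12 measured genes lower past a log2 ratio of -1. Over all genes with at least 20 CPM, 67.1%, 82.1% and 58.7% were lower by as much. Without immunoglobulin genes 9 of 9, 9 of 9 and 7 of 12 were, against 27.2%, 36.3% and 19.9% of all genes. The summed level of this list was 128 against 1834 CPM in control, 27.2 against 1584 in Mll3-labelled and 2725 against 16549 in Mll4-labelled cells. The T, NK and innate lymphoid list summed to 18.9 against 221, 2.47 against 163 and 23.8 against 144 CPM, and the stroma and endothelium list to 21.4 against 71.3, 12.4 against 46.7 and 17.9 against 91.2. The erythroid list summed to 101 against 586, 24.7 against 759 and 88.6 against 1731 CPM. The mast and basophil list summed to 20.1 against 113, 1.24 against 123 and 505 against 1843 CPM. Plasmacytoid dendritic genes, a lineage that also expresses Ly6d and Irf8, had medians of -0.18, -1.12 and -0.25, which turned to 0.67, 0.20 and 0.48 without immunoglobulin genes. Their summed level was 1402 against 467, 1714 against 554 and 1660 against 497 CPM. Most of each chosen sum was Ly6d, at 1057, 1425 and 1177 CPM, against 6.41, 36.9 and 4.75 CPM in the other cells. The monocyte list had 2, 2 and 12 measured genes, and its summed level was above that of the other cells in control (791 against 329 CPM) and in Mll3-labelled cells (1156 against 364). Most of both sums was Ly6c2, a surface gene that plasma cells are also known to express, at 723 and 1121 CPM.

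Genes for homing and survival were measured at 20 CPM for 9, 10 and 12 of 16 members, with medians of 1.09, 0.94 and 0.72. Beside Tnfrsf17, the related receptor genes Tnfrsf13b (TACI) and Tnfrsf13c (BAFF receptor) were at 145, 120 and 131 CPM and at 50.3, 39.5 and 32.3 CPM. Mcl1, an anti-apoptotic gene that plasma cells depend on, was at 293, 336 and 254 CPM, with log2 ratios of 1.09, 0.92 and 0.71, and Bcl2 at 77.9, 80.3 and 165 CPM (0.08, -0.06 and 0.74). Cxcr4, the receptor for the marrow chemokine CXCL12, was low, at 10.1, 8.65 and 20.6 CPM. Ccr10, a mucosal homing receptor of plasma cells, was at 26.4 against 0.0759, 63.0 against 0.0666 and 32.8 against 0.0513 CPM, in 9, 13 and 46 chosen cells.

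The Mll4-labelled library held enough IgA cells to set 28 of them beside its 101 IgM cells, with immunoglobulin genes left out of the totals. Of 1322 genes, 61 (4.61%) were higher in IgA cells past a log2 ratio of 1 and 28 (2.12%) lower. Ccr10 was at 156 CPM in IgA cells and 15.8 in IgM cells (log2 ratio 3.29), and a UMI was found in 24 of 28 against 15 of 101 cells. Ccr9, the small intestine homing receptor, was at 124 against 18.9 CPM, in 17 of 28 against 15 of 101 cells. Both receptors were therefore seen in most IgA cells and few IgM cells of this library. In the small groups of 4 IgA cells, Ccr10 was at 143 CPM in control and 794 in Mll3-labelled cells, against 35.8 and 86.6 in the IgM cells of those libraries. In the 9 Mll4-labelled IgG cells Ccr10 was at 117 and Ccr9 at 61.4 CPM. Cd28 was at 142 CPM in IgA and 51.7 in IgM cells of the Mll4-labelled library. Other genes went the opposite way. Chst1 was at 79.2 against 259 CPM, Prg2 at 451 against 1187, and Ly6k was found in 3 of 28 IgA against 42 of 101 IgM cells. Macrophage genes such as C1qa and Vcam1 were also higher in the IgA sum, but 82.3% of the C1qa UMIs and 83.3% of the Vcam1 UMIs lay in 3 cells.

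Chosen cells were also set side by side between libraries, among genes with at least 100 CPM and 20 UMIs in one of them. Both comparisons use the same 34 control cells. Of 633 genes, 10 (1.58%) were higher and 149 (23.5%) lower in Mll3-labelled than in control chosen cells past a log2 ratio of 1, with a median over all genes of -0.52. Immunoglobulin genes and Jchain took 65.0% of the UMIs there against 49.7% in control, and with the immunoglobulin genes left out the counts were 21 (3.44%) and 55 (9%) of 611 and the median -0.06. Wnt10a was at 159 against 62.9 CPM (log2 ratio 1.33, counting interval 0.86 to 1.84). Among genes other than immunoglobulins it was followed by Ggh (1.32), Selenom (1.12), Fos (1.09) and Chst1 (0.98). Between the other cells of the 2 libraries these 5 genes, from Wnt10a on, had log2 ratios of 0.41, 0.33, 2.02, 1.37 and 1.65. Ly6k, a Ly6 family gene, gave 1 UMI in the Mll3-labelled chosen cells and 244 in control, a log2 ratio of -7.37 (-13.27 to -5.46). Those 244 UMIs came from 14 of 34 cells, and the Mll4-labelled chosen cells held 1116 in 45 of 138. The next lowest were Ifitm3 (-3.22), Hist1h1b (-3.00), Hist1h2ap (-2.83) and Tmsb10 (-2.62). The Hist1h1b value rests on 1 control cell that held 78.3% of its UMIs.

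Between Mll4-labelled and control chosen cells, 87 of 751 genes (11.6%) were higher and 20 (2.66%) lower, with a median of -0.05. With immunoglobulin genes left out the counts were 60 (8.28%) and 29 (4%) of 725. The 5 highest were mast cell and granule genes: Cma1 at least 44.0-fold higher (622 UMIs against 0, with a floor of 3), then Camp (log2 ratio 7.30), Ngp (6.74), Cpa3 (6.45) and S100a8 (5.62). Single cells held 95.1% of the Camp, 94.9% of the Ngp and 91.9% of the S100a8 UMIs. For Cma1 and Cpa3, 84.2% and 76.3% of the UMIs lay in 3 cells. The other cells of the Mll4-labelled library were above the other control cells in the same genes, by log2 ratios of 11.55, 1.90, 2.49, 5.67 and 3.30. The part of free or foreign RNA in these values was not tested. The 5 lowest were Ltb (-2.28), which encodes lymphotoxin beta, Pafah1b3 (-1.37), Tmem134 (-1.20), Erh (-1.14) and Cd81 (-1.12). The other cells of the library were lower in these too, by log2 ratios of -1.82, -1.41, -0.60, -1.03 and -1.68. Of the plasma cell list, 14 genes could be set between Mll3-labelled and control chosen cells, with none past a log2 ratio of 1 either way and a median of 0.01 (0.47 without immunoglobulin genes). Between Mll4-labelled and control cells it was 15 genes, with 1 higher, 1 lower and a median of -0.06 (-0.18). The secretory list medians were 0.015 and 0.020, or 0.47 and -0.10 without immunoglobulin genes. MHC class II genes were higher in the Mll4-labelled cells, with a median of 2.69 and 3 of 4 measured genes past 1. The other cells of that library carried them higher too, as the H2-Aa values above show. Of the H2-Aa UMIs in its 138 chosen cells, 42.8% lay in 3 cells, and the median cell held 1.

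The deleted genes themselves were little covered in these cells. Kmt2c gave 29 UMIs in the chosen control cells (36.5 CPM), 8 in the Mll3-labelled (9.88 CPM), 189 in the Mll4-labelled (50.5 CPM) and 2 in the Mll3/4-labelled ones. The other cells of the libraries had 69.1, 35.5, 61.7 and 42.3 CPM, so Kmt2c was lower in the Mll3-labelled library both inside and outside the chosen set. Kmt2d gave 6, 5, 53 and 0 UMIs in the chosen cells.

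The surface antibodies, which the rule did not read, were expressed as a centred log ratio over the 6 antibodies (natural log). For CD117, the Kit protein used in the sort, the median count was 32 in chosen against 217 in other control cells, 54 against 409 in Mll3-labelled, 48 against 174 in Mll4-labelled and 102 against 498 in Mll3/4-labelled cells. Its centred log ratio differed between chosen and other cells by -0.976, -1.02, -0.593 and -1.70. CD34 differed by -0.788, -0.882 and -0.619 in the control, Mll3- and Mll4-labelled libraries. CD201 (EPCR) was higher by 0.684, 0.830 and 0.676. CD48, carried by most lymphoid cells, took a median of 812, 814 and 857 of every 1000 antibody counts of a chosen cell. Against the other cells its centred log ratio differed by 0.527, 1.91 and -0.111, and CD150 differed by 0.130, -0.684 and 0.279. CD135 (Flt3) was higher by 0.409, 0.375 and 0.276 in this ratio, while its median counts were 10 against 19, 15 against 26 and 16.5 against 19. Per 1000 antibody counts it was at 15.6 against 15.1, 17.6 against 16.7 and 13.1 against 8.97. Because the ratio is centred, a change in 1 antibody moves the others. Chosen cells had fewer antibody counts in all, with medians of 629, 880.5 and 1171.5 against 1259.5, 1581 and 2428, so a ratio within a cell says how the 6 proteins compare and not how much of each was present.

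**Figure D5:**
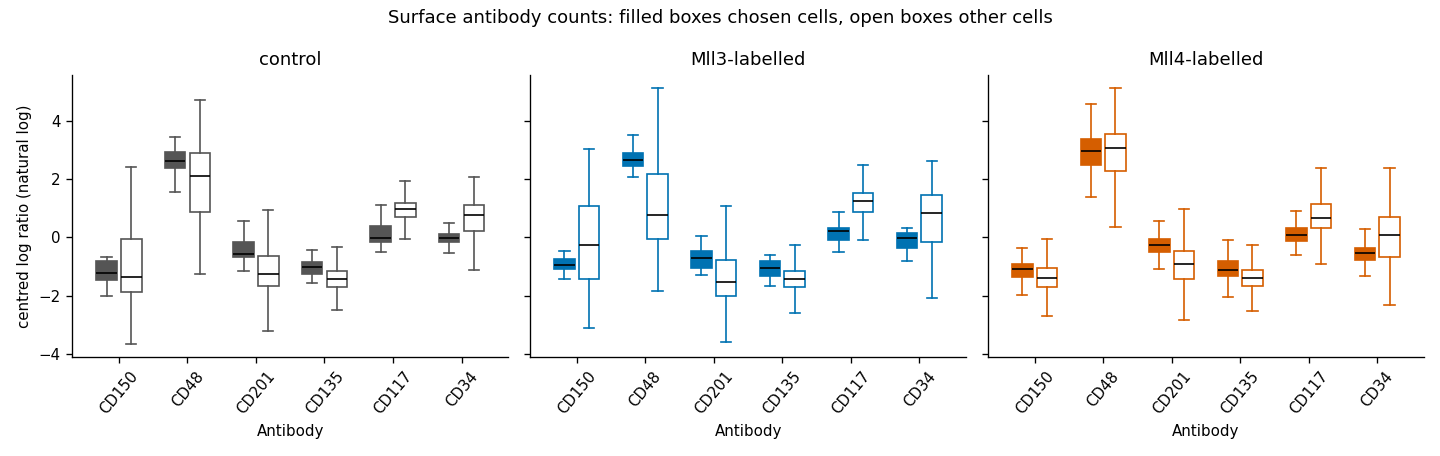
Centred log ratio (natural log, y axis) of the 6 surface antibodies (x axis) in chosen cells (filled boxes) and other cells (open boxes) of the control, Mll3- and Mll4-labelled libraries, with boxes from the lower to the upper quartile, the median as a line, and whiskers to the most distant cell within 1.5 box lengths. In this ratio CD117 and CD34 lie lower and CD201 and CD135 higher in chosen cells of each library, while CD48 and CD150 differ in direction between libraries.

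The 3 chosen cells of the Mll3/4-labelled library are given singly. The first was a lambda IgM cell with 25266 UMIs, 9043 lambda constant UMIs, no Igkc UMI, 1066 Jchain UMIs and the segments Iglv1 and Ighv6-3. The second was a kappa IgM cell with 31293 UMIs and the segments Igkv14-126 and Ighv11-2. The third was a kappa IgA cell with 25700 UMIs and the segments Igkv1-110 and Ighv1-81. Together they gave 62 UMIs of Xbp1, 129 of Mzb1, 17 of Sdc1, 13 of Tnfrsf17 and 84 of Txndc5, each present in all 3 cells, and none of Cd34. Irf4 was found in 2 of the 3 and Prdm1 and Kit in 1 each.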

How the data were processed

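Transcripts and 6 surface antibodies were counted in 4 libraries (10x Genomics 3' chemistry), 1 per genotype. The deposited matrices hold raw UMI counts per gene and barcode. The authors used Cell Ranger 6.1.1 and the mm10 build, per the submitters' processing notes; the step from raw barcodes to those deposited is not given in the sources used here. The cells and gene lists were chosen with earlier results of these data known.

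UMIs were summed over chosen and over other cells of a library and divided by the summed total (CPM), with exact Poisson intervals; log2 ratios used a prior of 0.5 UMI. Shares have exact 95% binomial (Clopper-Pearson) intervals. Lists were described over genes with at least 20 CPM in either sum, in 3 libraries with at least 20 chosen cells. Named were the 10 highest and 5 lowest log2 ratios among genes with at least 50 CPM, and between libraries the 5 highest and 5 lowest with at least 100 CPM and 20 UMIs, leaving out the genes of the rule, immunoglobulin, T-cell receptor, mitochondrial, ribosomal, haemoglobin, sex-linked and unnamed genes; list genes were named to show a list's range. No doublets were removed; as an alternative, cells with the highest Scrublet scores were left out (0.8% of cells for every 1000 in the library). Thinning drew 3000 UMIs per cell. The summing was tested on simulated data. Of 32285 gene identifiers 32158 (99.6%) were in the GRCm38 annotation. Tools were Python 3.11.15, numpy 2.4.6, scipy 1.17.1, pandas 2.3.3 and scanpy 1.11.5.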

Additional observations from a re-analysis of the deposited data

Results flagged for a closer look

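The CD150 antibody differed between chosen and other cells in opposite directions, by a centred log ratio of -0.684 in the Mll3-labelled library and 0.279 in the Mll4-labelled one. The difference between the libraries was not tested. In the other cells the median CD150 centred log ratio was itself unequal between libraries, as the open boxes of the antibody plot show.

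In the Mll4-labelled library 1873 barcodes that failed the cell filter had at least 0.5% of their UMIs from Igkc and Jchain, against 4 in control, 9 in Mll3-labelled and 1 in Mll3/4-labelled barcodes. They had medians of 642 UMIs and 403 genes, and a median Igkc and Jchain share of 0.907%, which lies below that of most chosen cells. Barcodes with under 1000 genes carried 9284 CPM of Igkc in that library.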

How the results depend on the processing

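With 1 library per genotype no value could be checked in a replicate, and 3 chosen cells in the Mll3/4-labelled library left its expression undescribed outside single cells. No paired analysis was possible because each genotype has 1 library. Alternatives with a limit of 10% or without cells rich in stem list genes were chosen after seeing the data. Of the recomputed summary values, 184 stayed the same and 33 moved; of the single-gene, other-list and antibody values, 1099 stayed the same, 257 moved and 18 changed sign. The cause of each shift was not tested.

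The Mll4-labelled share of chosen cells was 3.48% with a limit of 0.25% and 9.11% with the looser cell filter (500 genes, 20% mitochondrial). With the stricter filter (2000 genes, 5%) the shares were 0.710% (control), 0.811% (Mll3) and 3.54% (Mll4), and the plasma cell list medians 6.92 (control) and 5.68 (Mll3). Weighting cells equally gave list medians of 6.20 (Mll3) and 5.80 (Mll4), and a minimum of 100 CPM 5.47 and 5.51. Without immunoglobulin genes in the totals the medians were 8.10, 7.41 and 6.84, genes higher 488 (control) and 528 (Mll3), and genes lower 1687, 2309 and 1239; between chosen cells of the Mll3-labelled and control libraries 21 were higher and 55 lower. With a minimum of 5 CPM, 522, 420 and 536 genes were higher and 6521, 8083 and 5778 lower; with 100 CPM, 107, 89 and 104 were higher and 1043, 1337 and 909 lower.

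Among the recomputed values, those that changed sign were list medians and antibody ratios. Outside that set, leaving out immunoglobulin genes also changed the sign of Calr in control and Mll3-labelled cells and of Canx in control, as given above. B transcription factors in the Mll4-labelled library were at -0.46 (limit of 1%), -0.70 (limit of 10%), -0.035 (equal weight), -0.35 (5 CPM) and -0.77 (100 CPM), and in the Mll3-labelled one at 0.021 (totals without immunoglobulin genes) and 0.37 (100 CPM). Without immunoglobulin genes MHC class II was at 0.10 (control) and 0.25 (Mll4), and plasmacytoid dendritic genes at 0.67, 0.20 and 0.48, the latter also at 0.30 in Mll4 with 100 CPM. The monocyte list was at -0.23 (Mll3, stricter filter), homing genes at -0.19 (control, 5 CPM) and B progenitor genes at 1.86 (Mll4, 100 CPM). As counts per 1000, the CD150 difference was -0.0907 in control and the CD48 difference 0.0261 in Mll4.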
